A study of Rattus norvegicus with 20 samples.

Results

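The genes described here encode enzymes and carriers of xenobiotic, retinoid and lipid metabolism. They were chosen by symbol, as the genes whose name starts with 1 of 25 prefixes such as Cyp, Aldh, Gst, Acs, Fads, Alox, Apo and Abc. A symbol was available for 2311 of the 32494 genes in the count files, and 104 of these 2311 carried 1 of the prefixes. No named gene carried the Ugt, Sult, Fmo, Nqo, Rdh, Rbp, Plin or Lpin prefix, so these 8 families are not analysed here. The table that gave the symbols lists genes which the study had called against whisker follicle cells in at least 1 comparison, and it was given here in part. The members therefore are metabolic genes already known to differ from whisker cells somewhere in these libraries, not a full set of such genes. All 104 had at least 1 count in some sample, and 103 passed the filter of 1 CPM (counts scaled to library size) in at least 1 sample, the exception being the carboxylesterase Ces1a. Between 4 and 14 members lay below 3 counts in a given group.

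Cells were cultured from EGFP rats, which carry a CAG-EGFP transgene on a Sprague-Dawley background and express it throughout the body. Epithelial cells came from trachea, vagina, thymus, whisker follicle and the dome of the bladder. They were sequenced before transplantation (1st round of culture) and after recovery of EGFP cells from grafts in the skin of newborn mice (2nd round). Each of the 10 groups has 2 samples, and values given as before and after are those of the 2 samples in the 1st and the 2nd round. All groups were grown on irradiated mouse 3T3-J2 feeder cells and sorted on EGFP, so the controls shared the transgene, the feeders and the sort. Donor ages, in postnatal days, were PN57 for whisker, PN137 for thymus, PN200 for vagina and trachea, and PN201 for bladder. The whisker cells were a single clone (clone 7) before transplantation and a subclone (number 14) after it. The 1st round thymus samples are called bulk in one label and clone 9 in another, so whether they were clonal is open. The labels do not say that the 2 samples of a group came from separate animals or cultures, and the p values below then measure only the spread between such samples, which may be technical.

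Each sample held 20723083 to 29824855 reads assigned to genes, so that 3 counts, the smallest level taken as shown, corresponded to 0.101 to 0.145 CPM. The 2 samples of a group differed beyond sampling noise in each group (mean chi-square per gene 2.41 to 40.7), least alike in thymus and bladder before transplantation. The epithelial genes Epcam, Cdh1 and Dsp were well expressed in each group. Krt19, the remaining epithelial marker with a symbol, was called lower after recovery in bladder, trachea and vagina. Dsp was called higher in bladder and vagina. Defining markers of the tissues were partly absent or shared. The autoimmune regulator Aire of thymic epithelium averaged 0.328 CPM in 1st round thymus, and the uroplakin Upk1b averaged 177 CPM in bladder and 145 CPM in thymus before transplantation. The vagina markers at hand, Krt4, Esr1 and Emx2, all fell in vagina, where Krt4 averaged 655 CPM before and 15.3 CPM after and Esr1 18.9 and 0.727 CPM. Of 5 genes listed for the whisker follicle, 2 had a symbol, Krt10 and Tfap2b. In vagina both rose, Krt10 from 58.0 to 330.1 CPM and Tfap2b from 0.0415 to 8.31 CPM, and the 3 bladder markers fell. In bladder the 3 vagina markers rose, Krt4 from 42.7 to 283 CPM, and Krt10 rose from 1.59 to 226 CPM, while Tfap2b was not called. Stromal transcripts moved with the rounds. Of 14 stromal markers, 11 were lower and 2 (Aspn and Col5a2) higher after recovery in bladder. The summed level of the 14 there was 558 to 670 CPM before and 333 to 334 CPM after. In trachea 10 were lower, and the sum was 894 to 955 CPM before and 566 to 568 CPM after. In thymus 8 of the 14 were higher after recovery, with sums of 496 to 599 CPM before and 672 to 706 CPM after. In the vagina samples 1 was lower, and in the whisker samples 3 were lower, although the sum there went from 1511 to 1519 CPM before to 527 to 549 CPM after. None of the 14 was at 0 in a whole group, although asporin (Aspn) averaged 0.0208 CPM in 1st round bladder. In bladder 4 of 7 immune markers (Bin2, Cd53, Cd74 and Lcp1) were lower after recovery and 1 (Cd68) was higher. In trachea 3 were lower and 1 higher, in vagina 2 and 2, and in thymus 1 and 2. Of 5 endothelial markers, 3 were lower in bladder, 2 in vagina and 1 in thymus, while in trachea 1 was lower and 1 higher. In whisker no marker of these 2 lists was called. The part of the stromal, immune and endothelial markers in the changes described below was not tested. In such bulk samples fewer cells of a type and less RNA per cell cannot be told apart.

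Cytochromes P450 (Cyp) oxidise drugs, steroids, vitamins and fatty acids, and the glutathione transferases (Gst), carboxylesterases (Ces) and aldo-keto reductases (Akr) conjugate, hydrolyse or reduce the products. Retinol is oxidised to retinal by alcohol dehydrogenases and short-chain dehydrogenases and then to retinoic acid by Aldh1a enzymes, while Cyp26 enzymes degrade retinoic acid. The balance controls differentiation of stratified epithelia. In skin, elongases, lipoxygenases and the transporter Abca12 make and secrete the acylceramides and other lipids of the cornified permeability barrier.

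A gene was called at an adjusted p value under 0.05 with a fold change of at least 2, in a fit of all 13265 tested genes (limma voom). After transplantation 56 of the 103 members were called in bladder (35 higher, 21 lower), against 21.1% of all genes (10% higher, 11% lower). In trachea 31 were called (19 higher, 12 lower), against 12.4% of all genes (4.3% higher, 8.1% lower). In vagina the number was 40 (11 higher, 29 lower), against 11.8% (4.28% and 7.51%). Thymus had 42 (29 higher, 13 lower), against 15.4% (8.4% and 6.99%). Whisker had 18 (6 higher, 12 lower), against 6.05% (2.16% and 3.88%). As a share, 54.4% of the members were called in bladder, 30.1% in trachea, 38.8% in vagina, 40.8% in thymus and 17.5% in whisker. Among all named genes, which went through the same choice against whisker cells, these shares were 43.1%, 27.6%, 26.8%, 34.0% and 15.4%, so that most of the distance between the members and all genes was shared by the named genes at large. In vagina the members fell more often than they rose, while in bladder, trachea and thymus they rose more often than they fell. The median change of the members was 0.36 in bladder, 0.24 in trachea, -0.32 in vagina, 0.14 in thymus and -0.23 in whisker on the log2 scale, and that of all genes lay between -0.01 and 0.01. In no tissue were 26 members called, among them Aldh2, Akr1b8, Abcc3, Abca1 and Acsl4.

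**Figure D1:**
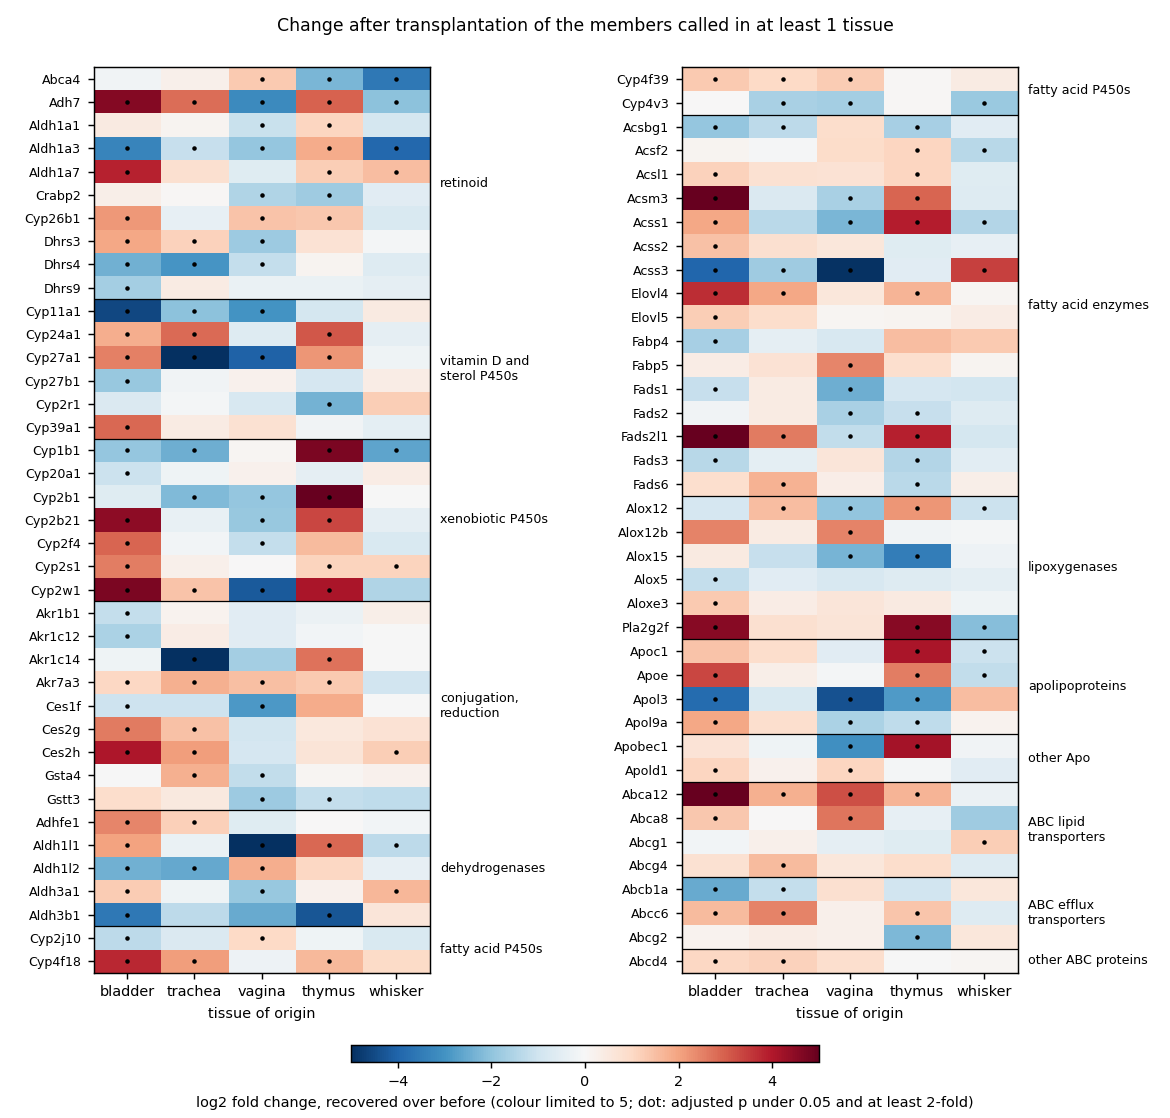
Change after transplantation (log2 fold change, recovered over before; colour limited to 5) of the 77 members called in at least 1 of 5 tissues, with members in rows by function and tissues in columns; a dot marks an adjusted p under 0.05 with at least a 2-fold change. Many rows, such as Adh7, Fads2l1 and Cyp2w1, are red in bladder and thymus and blue in vagina.

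Of the 10 retinoid genes, 4 rose and 3 fell in bladder, 2 rose and 2 fell in trachea, 2 rose and 6 fell in vagina, 5 rose and 2 fell in thymus, and 1 rose and 3 fell in whisker. The retinaldehyde dehydrogenase Aldh1a3 (ENSRNOG00000052070), which makes retinoic acid, showed the widest spread. In bladder it stood at 5417 and 4069 CPM before and 486 and 457 CPM after. Before transplantation it averaged 4743 CPM there and 28.1 to 69.7 CPM in the other 4 tissues, and the recovered bladder cells still exceeded each sample of the other tissues. It fell in bladder (log2 fold change -3.32 ± 0.11, adjusted p = 1.60e-12; ± values are SE), trachea (log2 fold change -1.15 ± 0.13, adjusted p = 3.25e-06), vagina (log2 fold change -1.94 ± 0.14, adjusted p = 2.44e-08) and whisker (log2 fold change -3.93 ± 0.23, adjusted p = 6.07e-09). In thymus, by contrast, the level was 29.6 and 26.6 CPM before and 104 and 100.1 CPM after, a rise (log2 fold change 1.86 ± 0.13, adjusted p = 8.04e-09). The 2 samples of each group lay on the same side of the other round in all 5 tissues.

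Cyp26b1, which degrades retinoic acid, stood at 20.2 and 24.8 CPM before and 103 and 97.3 CPM after in bladder, at 20.1 and 20.4 CPM before and 51.7 and 55.6 CPM after in vagina. In thymus it was at 13.7 and 16.3 CPM before and 37.5 and 38.8 CPM after. It rose in bladder (log2 fold change 2.16 ± 0.11, adjusted p = 7.98e-11), vagina (log2 fold change 1.41 ± 0.11, adjusted p = 5.53e-08) and thymus (log2 fold change 1.35 ± 0.12, adjusted p = 1.46e-07). In trachea it was measured at 18.5 and 15.3 CPM before and 11.8 and 13.4 CPM after and was not called (log2 fold change -0.42 ± 0.14, adjusted p = 0.0201). Dhrs3, which reduces retinal back to retinol, was at 55.7 and 44.3 CPM before and 189 and 188 CPM after in bladder and rose (log2 fold change 1.92 ± 0.13, adjusted p = 2.29e-09), as it did from a lower level in trachea (log2 fold change 1.17 ± 0.15, adjusted p = 1.07e-05). In vagina it went the other way, from 295 and 219 CPM to 70.6 and 72.9 CPM (log2 fold change -1.82 ± 0.12, adjusted p = 8.22e-09). Thymus had the highest Dhrs3 in both rounds, 331 and 296 CPM before and 512 and 507 CPM after, without a call (log2 fold change 0.70 ± 0.12, adjusted p = 0.000146).

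The cellular retinoic acid binding protein Crabp2 fell in vagina, 334 and 404 CPM before and 133 and 126 CPM after (log2 fold change -1.50 ± 0.12, adjusted p = 4.51e-08). It fell in thymus as well, 455 and 342 CPM before and 121 and 109.6 CPM after (log2 fold change -1.78 ± 0.12, adjusted p = 4.81e-09). It was not called in bladder (0.29 ± 0.12) or trachea (0.05 ± 0.12). The alcohol dehydrogenase Adh7, active on retinol, rose in bladder, 0.219 and 0.344 CPM before and 6.65 and 7.33 CPM after (log2 fold change 4.58 ± 0.45, adjusted p = 2.61e-07), in trachea (log2 fold change 2.79 ± 0.52, adjusted p = 0.000487) and in thymus (adjusted p = 0.00284), where the recovered levels stayed under 2 CPM. In thymus the 1st round held 3 counts in all, and the ratio was 9.68 with a 95% counting interval of 3.03 to 49.4 (exact, Clopper-Pearson; such intervals cover counting error only). It fell in vagina from low counts (log2 fold change -3.18 ± 0.71, adjusted p = 0.00194, and -1.45 or -5.08 without the 1st or the 2nd recovered sample). In whisker it fell from a higher level, 7.21 and 7.56 CPM before and 1.56 and 1.96 CPM after (log2 fold change -2.06 ± 0.27, adjusted p = 3.27e-05). Dhrs9, a retinol dehydrogenase, was called in bladder alone of the 5 tissues, 107 and 82.6 CPM before and 29.5 and 28.7 CPM after (log2 fold change -1.70 ± 0.12, adjusted p = 6.30e-09). The photoreceptor flippase Abca4 fell in whisker, 9.71 and 7.09 CPM before and 0.550 and 0.815 CPM after (log2 fold change -3.59 ± 0.40, adjusted p = 6.77e-06), and in thymus from about 1 CPM (log2 fold change -2.27 ± 0.62, adjusted p = 0.00651, and -1.76 with an adjusted p of 0.0662 without the 1st sample before transplantation). It rose in vagina, 1.42 and 2.32 CPM before and 4.45 and 4.44 CPM after (log2 fold change 1.31 ± 0.30, adjusted p = 0.00267, and 0.94 with an adjusted p of 0.0725 without the 1st sample before transplantation). Aldh1a1 was highest in whisker and trachea. In trachea its levels were 12.2 and 12.9 CPM before and 15.8 and 12.5 CPM after and overlapped between rounds (log2 fold change 0.14 ± 0.12, adjusted p = 0.364), while it fell in vagina (log2 fold change -1.13 ± 0.18, adjusted p = 9.85e-05) and rose in thymus from about 1 CPM (log2 fold change 1.08 ± 0.30, adjusted p = 0.00664, and 0.98 and not called without the 1st recovered sample). Aldh1a1 and its close copy Aldh1a7 may share reads, and their values are uncertain for that reason. Aldh1a7 rose in bladder, 0.366 and 0.258 CPM before and 5.06 and 4.39 CPM after (log2 fold change 3.83 ± 0.38, adjusted p = 2.86e-07).

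**Figure D2:**
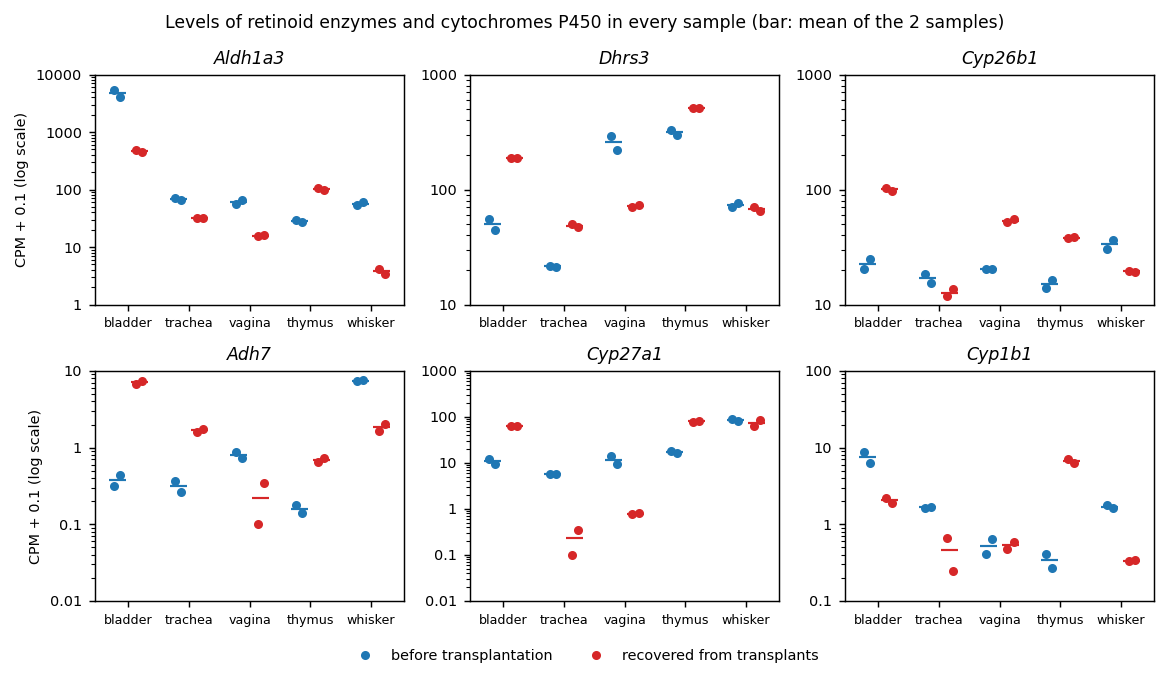
CPM of 6 retinoid and cytochrome P450 genes in every sample on a log scale (0.1 added), by tissue, before transplantation (blue) and after recovery (red); points are samples and bars the mean of 2. Aldh1a3 in 1st round bladder stands above 4000 CPM, and Cyp27a1 falls below 1 CPM in recovered trachea and vagina only.

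Cyp27a1 (ENSRNOG00000017188), the mitochondrial sterol 27-hydroxylase of bile acid synthesis, which also hydroxylates vitamin D, split the tissues. In bladder it stood at 12.3 and 9.43 CPM before and 62.2 and 64.0 CPM after, and in thymus at 18.3 and 16.0 CPM before and 77.6 and 81.4 CPM after. Both rose (bladder log2 fold change 2.53 ± 0.19, adjusted p = 1.22e-08; thymus log2 fold change 2.21 ± 0.17, adjusted p = 3.16e-08) to about the level of the whisker cells, which were at 89.3 and 80.0 CPM before and 63.4 and 85.6 CPM after. In trachea it stood at 5.76 and 5.77 CPM before and 0 and 0.256 CPM after, with 0 counts in the 1st recovered sample (log2 fold change -6.06 ± 0.97, adjusted p = 0.000118, and -4.39 or -7.94 without the 1st or the 2nd recovered sample). In vagina it stood at 13.8 and 9.44 CPM before and 0.672 and 0.698 CPM after (log2 fold change -4.03 ± 0.51, adjusted p = 1.11e-05). The 250 bases before its RefSeq start are shown because they hold a nuclear receptor half-site, AGGTCA, once on each strand (capitals, TGACCT being the other strand). The sequence is of the GRCr8 build, whereas the counts were made on Rnor_6.0.
Cyp27a1 (chr9:83713282-83713531, plus strand): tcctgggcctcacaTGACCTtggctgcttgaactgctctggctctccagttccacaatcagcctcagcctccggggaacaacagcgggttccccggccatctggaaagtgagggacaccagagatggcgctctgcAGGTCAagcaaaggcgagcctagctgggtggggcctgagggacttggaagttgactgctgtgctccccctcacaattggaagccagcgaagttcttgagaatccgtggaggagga
This half-site occurs on either strand in 14.1% of all 33469 promoter windows of that length and in 14.6% of 89 windows that matched 84 members. The match is a description of letters and not evidence of a bound site.

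Of the other vitamin D and sterol P450s, Cyp11a1, which cuts the cholesterol side chain in steroid synthesis, fell in bladder, 18.1 and 12.9 CPM before and 0.983 and 0.426 CPM after (log2 fold change -4.54 ± 0.50, adjusted p = 1.02e-06, and -3.93 without the 2nd recovered sample), and from below 2 CPM in trachea and vagina. These last calls were lost when a sample was left out, at adjusted p values of 0.0572 to 0.174 in trachea for either sample of either round, and of 0.0817 to 0.122 in vagina for all but the 2nd sample before transplantation. Cyp24a1, which inactivates vitamin D, rose in bladder (log2 fold change 1.81 ± 0.42, adjusted p = 0.0015), thymus (log2 fold change 3.10 ± 0.46, adjusted p = 4.45e-05) and trachea (adjusted p = 0.00674), with no group mean over 2 CPM. The trachea value rests on 12 counts after recovery against 1 before, a ratio of 12.5 with a counting interval of 1.85 to 534, and the call was lost without the 2nd sample before transplantation (adjusted p = 0.0851) or the 1st recovered one (0.0502). In the recovered thymus samples it was at 1.39 and 1.88 CPM. Cyp27b1, which activates vitamin D, fell in bladder, 3.62 and 3.31 CPM before and 0.983 and 0.852 CPM after (log2 fold change -1.91 ± 0.28, adjusted p = 2.41e-05), and was not called in another tissue. Cyp2r1, the vitamin D 25-hydroxylase, fell in thymus (log2 fold change -2.37 ± 0.45, adjusted p = 0.000402). Cyp39a1, an oxysterol hydroxylase, rose in bladder (adjusted p = 0.0105) on 17 counts against 3, a ratio of 6.39 with a counting interval of 1.85 to 34.0.

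Among the 9 xenobiotic P450s, 5 rose in thymus, 4 rose and 2 fell in bladder, 1 rose and 2 fell in trachea, 4 fell in vagina, and 1 rose and 1 fell in whisker. Cyp1b1, which oxidises polycyclic aromatic compounds and oestrogens and is a known target of the aryl hydrocarbon receptor, went in opposite directions. In bladder it was measured at 8.78 and 6.24 CPM before and 2.11 and 1.79 CPM after and fell (log2 fold change -1.94 ± 0.27, adjusted p = 1.22e-05), as it did in whisker (log2 fold change -2.65 ± 0.54, adjusted p = 0.00187). In thymus it was measured at 0.315 and 0.170 CPM before and 7.05 and 6.15 CPM after and rose (log2 fold change 4.69 ± 0.49, adjusted p = 9.72e-07). It also fell in trachea, 1.54 and 1.59 CPM before and 0.567 and 0.147 CPM after (log2 fold change -2.43 ± 0.51, adjusted p = 0.00125), where the change was -1.42 with an adjusted p of 0.0525 without the 2nd recovered sample. The receptor itself, Ahr, averaged 131 CPM before and 235 CPM after in thymus, 354 and 359 CPM in bladder, and was called in none of the 5 tissues. The promoter window of Cyp1b1 is shown for the receptor's core letters GCGTG, which it holds once on each strand (capitals), on GRCr8. The capitals CACGC are the same letters read on the other strand.
Cyp1b1 (chr6:21094315-21094564, plus strand): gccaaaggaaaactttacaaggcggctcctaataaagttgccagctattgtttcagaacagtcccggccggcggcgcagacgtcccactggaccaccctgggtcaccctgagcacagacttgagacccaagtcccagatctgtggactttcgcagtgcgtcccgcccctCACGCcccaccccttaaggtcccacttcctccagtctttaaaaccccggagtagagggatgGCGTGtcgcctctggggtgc
The core occurs on either strand in 25.9% of all windows and in 34.8% of the member windows.

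Cyp2s1, an epithelial P450, stood at 27.2 and 46.3 CPM before and 204 and 208 CPM after in bladder and rose (log2 fold change 2.55 ± 0.16, adjusted p = 1.18e-09). It rose as well in thymus, 88.3 and 77.4 CPM before and 182 and 176 CPM after (log2 fold change 1.12 ± 0.15, adjusted p = 1.20e-05), and in whisker, 37.1 and 30.3 CPM before and 75.7 and 68.4 CPM after (log2 fold change 1.10 ± 0.16, adjusted p = 0.000132), both of which lay at the fold threshold and were not called without the 2nd sample before transplantation (0.998 and 0.96). It was not called in vagina (0.03 ± 0.15) or trachea (0.27 ± 0.17). Cyp2w1, Cyp2b21, Cyp2b1 and Cyp2f4 moved between the floor and 4 CPM. Cyp2b1 in thymus went from 0.0394 and 0.0424 CPM to 2.58 and 2.15 CPM (adjusted p = 2.95e-06), or from 2 to 126 counts, a ratio of 57.2 with a counting interval of 15.5 to 477. Cyp2b1 and Cyp2b21 are close copies whose reads may be split. Cyp3a9 and Cyp2t1 were called in no tissue.

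Of 14 tested conjugating and reducing enzymes, 3 rose and 3 fell in bladder, 4 rose and 1 fell in trachea, 1 rose and 3 fell in vagina, 2 rose and 1 fell in thymus, and 1 rose in whisker. The aldo-keto reductase Akr7a3, which reduces aflatoxin dialdehyde, was 1 of 2 members called higher in all 4 non-hair tissues. It stood at 3.73 and 2.97 CPM before and 6.93 and 6.90 CPM after in bladder, 5.18 and 4.27 CPM before and 16.1 and 16.1 CPM after in trachea and 3.49 and 3.16 CPM before and 9.11 and 9.81 CPM after in vagina. The rises differed in size (bladder log2 fold change 1.04 ± 0.17, adjusted p = 7.76e-05; trachea log2 fold change 1.76 ± 0.14, adjusted p = 6.50e-08; vagina log2 fold change 1.50 ± 0.16, adjusted p = 2.26e-06), and thymus rose from about 0.5 CPM (log2 fold change 1.30 ± 0.36, adjusted p = 0.00716). The rise in trachea exceeded that in bladder by 0.72 ± 0.22, adjusted p = 0.0205 on the log2 scale, and its differences from vagina (0.26 ± 0.22, adjusted p = 0.368) and thymus (0.46 ± 0.39, adjusted p = 0.36) did not pass. The rise in bladder was 0.87 and no longer called without the 2nd sample before transplantation. Whisker gave 1.46 and 2.10 CPM before and 0.734 and 1.06 CPM after and no call (log2 fold change -0.95 ± 0.31, adjusted p = 0.0327). Among all 13265 genes, 36 were called higher in all 4 non-hair tissues. The Akr7a3 window on GRCr8 holds GCGTG once (capitals) and none of the other 3 motifs searched, the half-site given above and the 2 given with Abca12.
Akr7a3 (chr5:156876471-156876720, plus strand): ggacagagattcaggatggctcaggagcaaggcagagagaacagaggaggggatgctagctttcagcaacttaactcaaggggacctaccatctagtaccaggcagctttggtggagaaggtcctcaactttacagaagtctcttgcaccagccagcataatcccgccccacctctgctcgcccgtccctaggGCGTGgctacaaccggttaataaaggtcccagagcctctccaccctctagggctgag

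The carboxylesterases Ces2g and Ces2h, which hydrolyse ester drugs, are close copies whose reads may be split. Ces2g in bladder stood at 44.7 and 47.8 CPM before and 279 and 284 CPM after (log2 fold change 2.61 ± 0.06, adjusted p = 9.70e-14). Ces2h stood at 1.02 and 1.25 CPM before and 19.0 and 18.7 CPM after (log2 fold change 4.04 ± 0.22, adjusted p = 2.90e-10). Both rose in trachea (Ces2g log2 fold change 1.45 ± 0.06, adjusted p = 8.12e-11; Ces2h log2 fold change 2.08 ± 0.16, adjusted p = 5.49e-08). Their levels in bladder and trachea thereby approached those of the other tissues, where Ces2g was between 253 and 613 CPM in each recovered sample. Gstt3, a theta class glutathione transferase, was nearly absent from whisker cells, 0.250 and 0.327 CPM before and 0.0917 and 0.122 CPM after, and was at 28.8 CPM or more in each other sample. It fell in vagina, 243 and 255 CPM before and 68.8 and 70.4 CPM after (log2 fold change -1.83 ± 0.12, adjusted p = 6.23e-09). It also fell in thymus, 76.5 and 60.1 CPM before and 30.9 and 28.8 CPM after (log2 fold change -1.19 ± 0.13, adjusted p = 2.09e-06, and -0.99 and not called without the 1st sample before transplantation). Gsta4, which conjugates the lipid peroxidation product hydroxynonenal, rose in trachea, 15.8 and 15.1 CPM before and 55.1 and 50.6 CPM after (log2 fold change 1.76 ± 0.13, adjusted p = 3.93e-08). In vagina it fell, 26.3 and 27.0 CPM before and 11.2 and 11.7 CPM after (log2 fold change -1.22 ± 0.15, adjusted p = 7.48e-06). Akr1b8 was called in no tissue, with changes between -0.94 in bladder and 0.92 in vagina.

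Of 7 further aldehyde and alcohol dehydrogenases, 3 rose and 2 fell in bladder, 1 rose and 1 fell in each of trachea, thymus and whisker, and 1 rose and 2 fell in vagina. The folate enzymes Aldh1l1 (cytosolic) and Aldh1l2 (mitochondrial), which oxidise 10-formyltetrahydrofolate, went in opposite directions in bladder and vagina. In no other tissue were both called, and in whisker Aldh1l1 fell (log2 fold change -1.31 ± 0.17, adjusted p = 3.10e-05) with Aldh1l2 at -0.43 ± 0.40. Aldh1l1 in thymus was at 3.15 and 3.27 CPM before and 23.1 and 23.6 CPM after (log2 fold change 2.86 ± 0.25, adjusted p = 1.44e-07). In bladder it was at 8.41 and 3.96 CPM before and 25.7 and 23.0 CPM after (log2 fold change 2.03 ± 0.21, adjusted p = 3.98e-07, and 2.62 without the 1st sample before transplantation). In vagina it dropped from 3.84 and 4.27 CPM to 0.0840 and 0.0349 CPM, or from 196 to 3 counts over both samples (adjusted p = 4.23e-05), a ratio of 70.6 with a counting interval of 23.8 to 345. Aldh1l2 in vagina was at 1.73 and 2.00 CPM before and 7.48 and 5.80 CPM after and rose (log2 fold change 1.81 ± 0.24, adjusted p = 1.78e-05), while it fell in bladder (log2 fold change -2.39 ± 0.36, adjusted p = 2.90e-05) and trachea, 5.56 and 5.85 CPM before and 1.09 and 0.879 CPM after (log2 fold change -2.54 ± 0.30, adjusted p = 5.09e-06). Aldh3a1, the corneal aldehyde dehydrogenase, rose in whisker, 16.8 and 16.9 CPM before and 53.1 and 52.1 CPM after (log2 fold change 1.64 ± 0.11, adjusted p = 2.06e-08), and bladder (log2 fold change 1.27 ± 0.13, adjusted p = 4.65e-07). It fell in vagina, 2.80 and 2.67 CPM before and 0.756 and 0.698 CPM after (log2 fold change -1.89 ± 0.33, adjusted p = 0.000267). Aldh2, the main acetaldehyde dehydrogenase, ranged from 232 to 529 CPM over the 20 samples and was called in no tissue.

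Of 6 members tied to the cornified lipid barrier (Abca12, Alox12b, Aloxe3, Elovl4, Cyp4f39 and Pla2g2f), 5 rose in bladder and 3 in each of trachea, vagina and thymus, and 1 fell in whisker. None was called lower in a non-hair tissue. Bladder had the highest median of their log2 fold changes, 3.09, followed by thymus (1.08), vagina (0.96), trachea (0.90) and whisker (-0.17), against -0.01 to 0.01 over all genes. Alox12b and Pla2g2f are near or under the floor in many of these groups, with 0 and 1 count for Pla2g2f in the 2 rounds of trachea and of vagina, so the sign of their fits there is not a measured change. Over the other 4 members the median was 2.51 in bladder, 1.40 in trachea, 0.93 in vagina, 1.08 in thymus and -0.07 in whisker. Abca12 (ENSRNOG00000015248), which loads glucosylceramides into lamellar bodies, was the second member called higher in all 4 non-hair tissues. Its level was 0.768 and 0.301 CPM before and 25.9 and 21.3 CPM after in bladder, and 11.5 and 12.2 CPM before and 42.4 and 40.0 CPM after in trachea. In vagina it was 9.67 and 16.1 CPM before and 117 and 112 CPM after, and in thymus 6.07 and 9.12 CPM before and 24.0 and 24.8 CPM after. Each recovered sample exceeded each sample of the same tissue before transplantation (bladder log2 fold change 5.51 ± 0.55, adjusted p = 3.29e-07, and 6.20 or 4.88 without the 1st or the 2nd sample before transplantation; trachea log2 fold change 1.79 ± 0.19, adjusted p = 1.51e-06; vagina log2 fold change 3.21 ± 0.18, adjusted p = 1.10e-09; thymus log2 fold change 1.72 ± 0.22, adjusted p = 8.09e-06). In whisker it was measured at 50.8 and 41.7 CPM before and 34.8 and 39.8 CPM after, with no call (log2 fold change -0.31 ± 0.16, adjusted p = 0.166). The Abca12 window on GRCr8, shown because the gene rose in each non-hair tissue, holds none of the 4 motifs searched. Beside the receptor core and the half-site given above, these were the antioxidant response element TGACNNNGC, found in 10.1% of all windows and 12.4% of member windows. The last was the AP-1 site TGANTCA, found in 6.34% and 6.74%.
Abca12 (chr9:80445341-80445590, minus strand): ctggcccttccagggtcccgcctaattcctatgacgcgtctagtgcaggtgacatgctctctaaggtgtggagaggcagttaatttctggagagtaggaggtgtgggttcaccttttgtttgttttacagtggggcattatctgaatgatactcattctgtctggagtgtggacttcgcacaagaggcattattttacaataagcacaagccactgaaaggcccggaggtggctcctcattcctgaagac

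Elovl4, which elongates very long chain fatty acids for acylceramides, stood at 6.80 and 8.57 CPM before and 100 and 97.8 CPM after in bladder, 4.40 and 3.58 CPM before and 15.49 and 15.02 CPM after in trachea and 13.1 and 11.3 CPM before and 39.3 and 39.6 CPM after in thymus. It rose in all 3 (bladder log2 fold change 3.70 ± 0.16, adjusted p = 1.39e-11; trachea log2 fold change 1.92 ± 0.21, adjusted p = 2.58e-06; thymus log2 fold change 1.70 ± 0.14, adjusted p = 8.80e-08), and recovered bladder reached the whisker cells, which were at 110.1 and 84.9 CPM before and 99.1 and 108 CPM after. In vagina it was already at 39.0 and 46.1 CPM and was not called (log2 fold change 0.56 ± 0.11, adjusted p = 0.00102). Cyp4f39, an acylceramide omega-hydroxylase, rose in bladder (log2 fold change 1.30 ± 0.15, adjusted p = 2.30e-06), trachea (log2 fold change 1.01 ± 0.14, adjusted p = 3.83e-05) and vagina, 58.2 and 76.8 CPM before and 165 and 158 CPM after (log2 fold change 1.28 ± 0.14, adjusted p = 2.39e-06). Aloxe3, the epidermal hydroperoxide isomerase, rose in bladder, 4.39 and 5.77 CPM before and 14.5 and 10.8 CPM after (log2 fold change 1.31 ± 0.20, adjusted p = 3.73e-05). Its partner Alox12b stayed under 1.5 CPM in each sample. In vagina Alox12b went from 0.0384 and 0.0445 CPM to 0.546 and 0.210 CPM (adjusted p = 0.0267), or from 2 to 19 counts, a ratio of 8.79 with a counting interval of 2.12 to 77.8, and the call was lost without either sample before transplantation or the 1st recovered one (adjusted p = 0.0987 to 0.160). The epidermal phospholipase Pla2g2f had 0 counts in the 1st round of the 4 non-hair tissues. In recovered bladder it reached 0.656 and 0.298 CPM, with a mean 3.91-fold over the level of 3 counts per library. In recovered thymus it reached 0.676 and 0.330 CPM, with a mean 3.98-fold over that level. It fell in whisker, 5.09 and 5.22 CPM before and 1.61 and 0.856 CPM after (log2 fold change -2.14 ± 0.30, adjusted p = 7.86e-05).

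**Figure D3:**
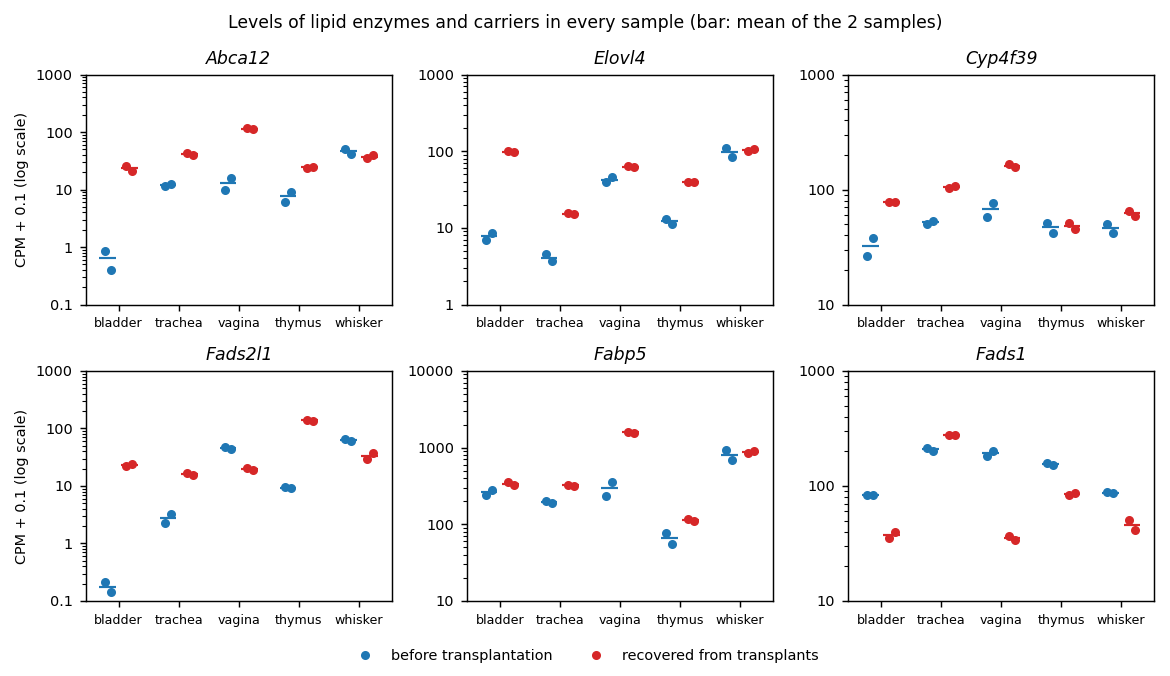
CPM of 6 lipid enzymes and carriers in every sample on a log scale (0.1 added), by tissue, before transplantation (blue) and after recovery (red); points are samples and bars the mean of 2. Abca12 is higher after recovery in bladder, trachea, vagina and thymus, while Fads1 is lower after recovery in each tissue but trachea.

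Of 18 genes of fatty acid synthesis, activation and binding, 7 rose and 5 fell in bladder, 3 rose and 2 fell in trachea, 1 rose and 6 fell in vagina, 6 rose and 4 fell in thymus, and 1 rose and 2 fell in whisker. Fads2l1, annotated as like the delta-6 desaturase Fads2, had the largest fitted rise of the members named in bladder, 0.110 and 0.0430 CPM before and 22.2 and 23.7 CPM after (log2 fold change 7.96 ± 0.59, adjusted p = 9.20e-09), on 1st round counts at the level of the floor. It rose in thymus, 9.35 and 9.07 CPM before and 142 and 134 CPM after (log2 fold change 3.90 ± 0.13, adjusted p = 1.96e-12), and trachea, 2.12 and 3.17 CPM before and 16.4 and 15.7 CPM after (log2 fold change 2.61 ± 0.21, adjusted p = 6.78e-08). In vagina it fell, 47.2 and 43.9 CPM before and 20.2 and 18.6 CPM after (log2 fold change -1.24 ± 0.11, adjusted p = 2.26e-07). As a close copy of Fads2, it may lose reads to uncounted multiple alignments.

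Fads1 and Fads2, the classical desaturases of polyunsaturated fatty acids, shared the fall in vagina, and neither was called higher in any tissue. Fads1 (delta-5) stood at 183 and 203 CPM before and 36.4 and 33.7 CPM after in vagina and fell (log2 fold change -2.46 ± 0.09, adjusted p = 9.70e-12). It fell in bladder too, 83.7 and 83.0 CPM before and 35.3 and 40.0 CPM after (log2 fold change -1.15 ± 0.10, adjusted p = 3.43e-08). In trachea, where it was measured at 214 and 201.5 CPM before and 275 and 277 CPM after, it was not called (log2 fold change 0.40 ± 0.08, adjusted p = 0.00129). Fads2 (delta-6) fell in vagina, 139.6 and 153 CPM before and 46.9 and 46.7 CPM after (log2 fold change -1.64 ± 0.12, adjusted p = 2.19e-08). In thymus it fell likewise, 167 and 172 CPM before and 74.5 and 76.0 CPM after (log2 fold change -1.17 ± 0.12, adjusted p = 4.79e-07). Fads3 fell in thymus (log2 fold change -1.47 ± 0.15, adjusted p = 5.33e-07) and bladder (log2 fold change -1.40 ± 0.13, adjusted p = 1.58e-07). The elongase Elovl5 of the same pathway rose in bladder, 78.3 and 78.0 CPM before and 177 and 188 CPM after (log2 fold change 1.22 ± 0.07, adjusted p = 7.94e-10).

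Fabp5, the epidermal fatty acid binding protein, stood at 233 and 358 CPM before and 1589 and 1572 CPM after in vagina and rose (log2 fold change 2.46 ± 0.18, adjusted p = 1.77e-08), above the whisker samples at 923 and 691 CPM before and 853 and 902 CPM after. The changes in bladder (0.37 ± 0.17), trachea (0.71 ± 0.17) and thymus (0.82 ± 0.18) were not called. Fabp4, best known from adipocytes, was at 53.4 and 101 CPM before and 25.1 and 21.6 CPM after in bladder, and no sample of another tissue exceeded 1 CPM. It fell in bladder (log2 fold change -1.66 ± 0.22, adjusted p = 9.26e-06), where 3 of 4 adipocyte markers were lower after recovery and 1 (Cidea) was higher. The sum of these markers in bladder went from 117 to 125 CPM to 44.1 to 44.8 CPM. The part of such cells was not tested, and Adipoq averaged 45.5 CPM in 1st round vagina, where Fabp4 was at 0.345 and 0.712 CPM. The acyl-CoA synthetase Acsl1 rose in bladder, 44.9 and 48.3 CPM before and 102 and 107 CPM after (log2 fold change 1.16 ± 0.08, adjusted p = 4.41e-09). It rose in thymus, 80.7 and 73.5 CPM before and 161 and 159 CPM after (log2 fold change 1.06 ± 0.08, adjusted p = 1.52e-08, and 0.97 and not called without the 2nd sample before transplantation). Acss2, which activates acetate, rose in bladder, 28.9 and 19.2 CPM before and 64.0 and 69.3 CPM after (log2 fold change 1.48 ± 0.15, adjusted p = 4.13e-07). The medium chain synthetase Acsm3 had 0 counts in 1st round bladder and 4.64 and 3.96 CPM after recovery, with a mean 35.3-fold over the level of 3 counts per library.

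The platelet-type 12-lipoxygenase Alox12, which makes 12-hydroperoxides of arachidonic acid, marked thymus. Its level there was 31.5 and 28.6 CPM before and 139 and 139 CPM after, a rise (log2 fold change 2.21 ± 0.12, adjusted p = 3.62e-10), and no sample of another tissue exceeded 13.2 CPM. It rose in trachea to about 4 CPM (log2 fold change 1.54 ± 0.34, adjusted p = 0.00163). It fell in vagina, 13.2 and 10.6 CPM before and 3.07 and 3.04 CPM after (log2 fold change -1.95 ± 0.23, adjusted p = 6.00e-06), and whisker (log2 fold change -1.08 ± 0.22, adjusted p = 0.0022). Alox15 fell in thymus, 4.34 and 3.35 CPM before and 0.507 and 0.231 CPM after (log2 fold change -3.45 ± 0.44, adjusted p = 7.66e-06). Alox5 fell in bladder (log2 fold change -1.18 ± 0.36, adjusted p = 0.00923).

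Apolipoprotein E (Apoe), a ligand of lipoprotein receptors, was highest in whisker cells, 1174 and 1134 CPM before and 505 and 470.2 CPM after, and fell there (log2 fold change -1.24 ± 0.16, adjusted p = 3.02e-05). It rose in bladder, 10.8 and 6.46 CPM before and 82.4 and 91.6 CPM after (log2 fold change 3.35 ± 0.24, adjusted p = 5.19e-09). It rose in thymus as well, 37.6 and 32.2 CPM before and 199.6 and 209.7 CPM after (log2 fold change 2.56 ± 0.18, adjusted p = 7.49e-09). In trachea it was at 6.14 and 3.94 CPM before and 6.14 and 6.04 CPM after and in vagina at 30.6 and 17.4 CPM before and 22.4 and 21.5 CPM after, with neither called (trachea 0.29 ± 0.35; vagina -0.09 ± 0.21). Apol3 fell in bladder, 7.97 and 11.1 CPM before and 0.515 and 0.767 CPM after (log2 fold change -3.83 ± 0.40, adjusted p = 5.05e-07). The editing enzyme Apobec1, which carries the Apo prefix through its target apolipoprotein B, rose in thymus, 2.01 and 1.53 CPM before and 32.8 and 31.3 CPM after (log2 fold change 4.17 ± 0.21, adjusted p = 1.77e-10). Apobec1 fell in vagina, 7.68 and 8.37 CPM before and 0.798 and 1.05 CPM after (log2 fold change -3.09 ± 0.27, adjusted p = 1.55e-07).

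Of the ABC transporters of drugs, the multidrug pump Abcb1a fell in bladder, 139 and 108 CPM before and 21.9 and 20.7 CPM after (log2 fold change -2.52 ± 0.12, adjusted p = 5.91e-11). In trachea it fell as well, 45.7 and 43.2 CPM before and 19.2 and 20.1 CPM after (log2 fold change -1.18 ± 0.13, adjusted p = 1.95e-06), after which bladder, trachea, vagina and whisker all lay between 19.2 and 22.6 CPM. Abcg2, a pump often used to mark side population stem cells, fell in thymus, 4.30 and 3.52 CPM before and 0.760 and 0.826 CPM after (log2 fold change -2.26 ± 0.33, adjusted p = 3.82e-05), and was not called elsewhere. Among the 8 efflux transporters 1 rose (Abcc6) and 1 fell in each of bladder, trachea and thymus. Of the cholesterol exporters, Abcg1 rose in whisker, 22.1 and 17.6 CPM before and 48.3 and 45.9 CPM after (log2 fold change 1.25 ± 0.11, adjusted p = 5.01e-07), and Abca1 was called in no tissue. In trachea, where Abca1 was at 2.74 and 2.15 CPM before and 0.803 and 0.733 CPM after, edgeR's quasi-likelihood test gave -1.69 with an adjusted p of 0.00736, past the threshold, against -1.66 ± 0.71, adjusted p = 0.0717 by limma voom.

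The direction of change was set against that in other tissues through members called in both; each tissue was compared with its own 1st round, so these comparisons share no samples. Bladder and trachea had 24 such members, of which 1 (Cyp27a1) went in opposite directions, or 4.17%, against 7.35% of all genes called in both. Bladder and thymus had 27, with 3 opposed (Aldh1a3, Apol9a and Cyp1b1), or 11.1%, against 31.3% of all genes. Vagina and bladder had 27, with 14 opposed (51.9%, against 39.5% of all genes), and vagina and thymus 23, with 14 opposed (60.9%, against 47.6%). Trachea and vagina had 17, with 7 opposed (41.2%, against 34.1%), and trachea and thymus also had 17, with 6 opposed (35.3%, against 38.1%). Higher in bladder and thymus and lower in vagina were Adh7, Cyp27a1, Aldh1l1, Fads2l1, Acss1, Acsm3, Cyp2b21 and Cyp2w1. Several of these rest on low counts. In vagina Acss1 went from 17 to 3 counts, Cyp2w1 from 36 to 2 and Aldh1l1 from 196 to 3. In thymus Cyp2w1 went from 1 to 32 counts, Acsm3 from 1 to 14, Cyp2b21 from 3 to 43 and Adh7 from 3 to 32. Thymus and whisker had 13, with 10 opposed (76.9%, against 64.4% of all genes). The pairs of whisker with bladder (6 of 12, against 45.0% of all genes), trachea (3 of 7, against 31.3%) and vagina (3 of 9, against 42.8%) rest on fewer members. In all, 24 members rose in at least 1 non-hair tissue and fell in another, whereas 2 rose in all 4, 6 rose in 3 and fell in none (Abcc6, Cyp24a1, Cyp26b1, Cyp4f18, Cyp4f39 and Elovl4), and 5 fell in 3 and rose in none (Acsbg1, Acss3, Apol3, Cyp11a1 and Dhrs4).

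**Figure D4:**
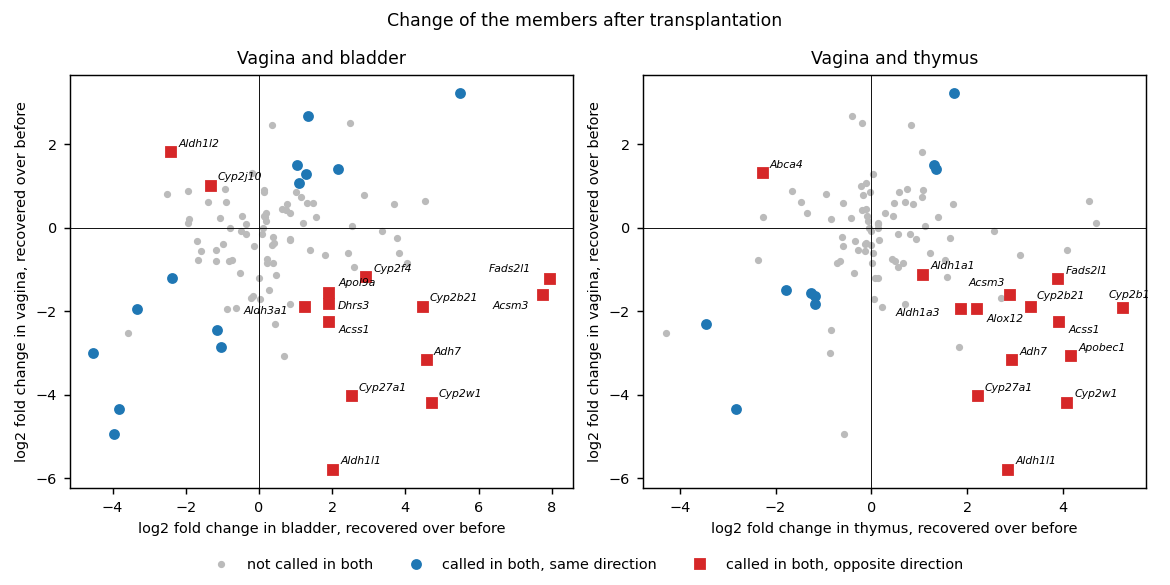
Change after transplantation in vagina (vertical axis) against that in bladder (left) and thymus (right), as log2 fold changes, for the 103 members; red squares are members called in both tissues in opposite directions and blue circles those called in the same direction. Most red squares lie at the lower right, with a rise in bladder or thymus and a fall in vagina.

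The change in vagina was compared directly with the mean change in bladder, trachea and thymus, a comparison added after the values were seen. The fall of the vagina markers and the rise of Krt10 and Tfap2b in vagina, given above, move with this comparison, and their part was not tested. The interaction was called for 46 members (9 higher, 37 lower in vagina), against 18.1% of all genes (7.96% higher, 10.2% lower) and 36.5% of named genes. The differences were -6.06 ± 0.24, adjusted p = 1.55e-11 for Fads2l1, -3.08 ± 0.14, adjusted p = 7.97e-11 for Dhrs3, -3.12 ± 0.14, adjusted p = 7.97e-11 for Ces2h and -6.62 ± 0.78, adjusted p = 3.65e-06 for Adh7, the last -4.89 or -8.52 without the 1st or the 2nd recovered vagina sample. On the other side stood Fabp5 (1.82 ± 0.20, adjusted p = 2.03e-06), Abcb1a (2.35 ± 0.16, adjusted p = 9.25e-09) and Aldh1l2 (3.10 ± 0.33, adjusted p = 1.13e-06). Cyp26b1 and Abca12 rose in vagina as well, and neither was called in this comparison (Cyp26b1 0.38 ± 0.13; Abca12 0.21 ± 0.27).

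Trachea was the tissue in which the design asked whether the change differed from bladder, vagina and thymus. The interaction was called for 24 members (12 higher, 12 lower in trachea), against 9.7% of all genes (3.91% higher, 5.8% lower) and 21.0% of named genes. Changes in trachea were higher for Gsta4 (2.14 ± 0.15, adjusted p = 5.89e-08), Fads1 (1.89 ± 0.10, adjusted p = 2.70e-09), Fads2 (1.39 ± 0.13, adjusted p = 9.46e-07) and Gstt3 (1.22 ± 0.14, adjusted p = 6.95e-06). Lower changes were found for Cyp27a1 (-6.30 ± 0.99, adjusted p = 0.000175, and -4.64 or -8.18 without the 1st or the 2nd recovered trachea sample), Aldh1l2 (-2.70 ± 0.37, adjusted p = 4.76e-05), Cyp26b1 (-2.06 ± 0.15, adjusted p = 6.21e-08) and Abca12 (-1.69 ± 0.28, adjusted p = 0.000271). The lower value for Abca12 is a smaller rise, not a fall. Set against each of the 3 tissues separately, 4 members differed from all of them in the same direction, namely Akr1c14, Cyp26b1, Fads1 and Gsta4. Akr1c14 rests on low counts, 13 and 25 before and 0 and 0 after in trachea. In the other tissues it lay near or under the floor, with 2 and 0 counts before and 0 and 1 after in bladder. It had 1 and 1 before and 0 and 0 after in vagina, and 0 and 0 before and 5 and 2 after in thymus. Recovered trachea had Fads1 at 275 and 277 CPM and Fads2 at 251 and 217 CPM, while no recovered sample of the other tissues exceeded 87.3 CPM for Fads1 or 76.0 CPM for Fads2.

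**Figure D5:**
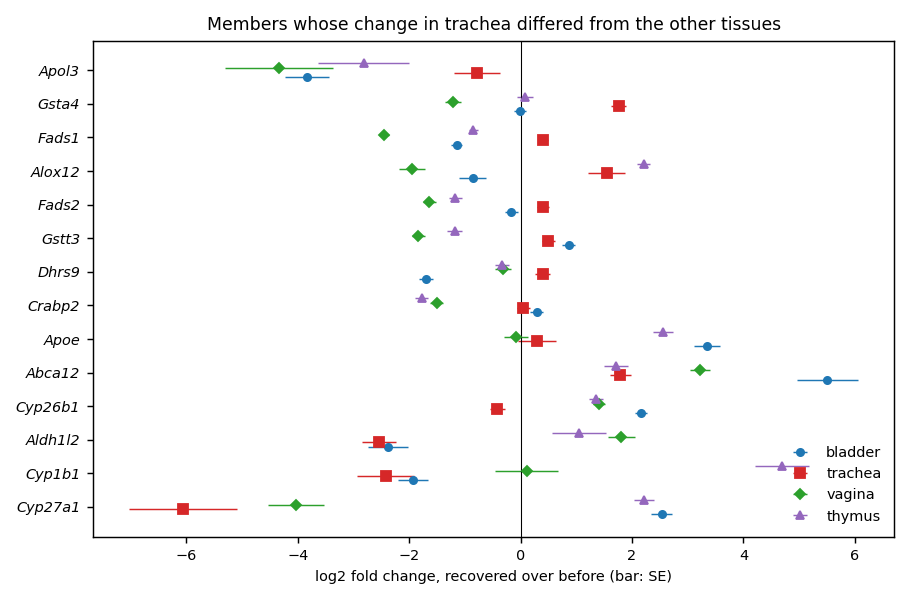
Log2 fold changes after transplantation (bar: SE) in bladder, trachea, vagina and thymus for the 14 described members whose change in trachea differed from the mean of the other 3 tissues. The red squares of trachea stand to the right for Gsta4 and Fads1 and to the left for Cyp26b1 and Cyp27a1.

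Each non-hair tissue was also compared with the mean of the 3 others in the same round. Before transplantation 50 members were called for bladder (28 higher, 22 lower), against 20.3% of all genes (12.8% higher, 7.43% lower). Trachea had 36 (15 and 21), against 12.3% of all genes (6.19% and 6.12%). Vagina had 43 (27 and 16), against 17% (7.53% and 9.49%), and thymus 42 (13 and 29), against 18.4% (8.34% and 10.1%). After recovery 45 were called for bladder (35 higher, 10 lower), against 14.6% of all genes (10.8% and 3.76%). Trachea then had 43 (21 and 22), against 13.3% (5.45% and 7.82%). Vagina had 41 (13 and 28), against 14.2% (5.08% and 9.08%), and thymus 46 (27 and 19), against 14.4% (8.32% and 6.09%). The leading members given next are those with the largest differences among called members that reached 5 CPM in each sample of the tissue.

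The bladder profile before transplantation was led by Fabp4 (7.53 ± 0.50, adjusted p = 1.49e-09), Aldh1a3 (6.61 ± 0.10, adjusted p = 2.79e-17) and Cyp11a1 (4.29 ± 0.29, adjusted p = 2.05e-09). After recovery it was led by Fabp4 (5.77 ± 0.49, adjusted p = 4.58e-08), Cyp27a1 (5.24 ± 0.37, adjusted p = 5.72e-09, and 5.87 without the 2nd recovered trachea sample) and Adh7 (4.07 ± 0.28, adjusted p = 4.40e-09, and 4.70 without the 2nd recovered vagina sample). Below that level, Acsm3 (5.05 ± 0.28, adjusted p = 3.32e-10) and Alox15 (4.12 ± 0.38, adjusted p = 1.30e-07) lay above Adh7. Fabp4 and Aldh1a3 exceeded each of the 3 other tissues in both rounds. Of the members of at least 5 CPM, trachea was led by Aldh1a1 in both rounds (2.51 ± 0.14, adjusted p = 7.81e-10 before; 2.51 ± 0.13, adjusted p = 2.38e-10 after). The next were Cyp2j10 (2.24 ± 0.17, adjusted p = 2.18e-08), a fatty acid epoxygenase, and Aldh1l2 (2.15 ± 0.20, adjusted p = 2.60e-07) before transplantation, and Fads1 (2.501 ± 0.07, adjusted p = 4.21e-13) and Akr7a3 (1.90 ± 0.11, adjusted p = 1.03e-09) after it. Larger differences at lower levels were those of Akr1c14 (4.24 ± 0.47) and Cyp2f4 (3.37 ± 0.38) before transplantation and of Akr1c12 (3.48 ± 0.36) and Apol3 (3.34 ± 0.51) after it, all called. Taken against the 3 other tissues separately, Aldh1a1, Cyp2j10 and Aldh1l2 before transplantation and Akr7a3 after it were not called against all of them.

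Under the same limit, vagina was led before transplantation by Fads2l1 (5.12 ± 0.22, adjusted p = 1.30e-11), Aldh1a7 (3.07 ± 0.16, adjusted p = 1.01e-10) and Ces2h (2.59 ± 0.11, adjusted p = 1.48e-11), and after recovery by Aldh1l2 (3.09 ± 0.21, adjusted p = 4.25e-09), Abcg2 (2.77 ± 0.13, adjusted p = 9.05e-11) and Fabp5 (2.76 ± 0.14, adjusted p = 2.51e-10). Ces2h before transplantation and Abcg2 after it were not called against all 3 other tissues taken separately. Recovered bladder had 417 and 457 counts of Abcg2, against 775 and 910 in recovered vagina. Below 5 CPM, Cyp4f18 (3.26 ± 0.22) lay above Aldh1a7, and Acsm3 averaged 1.26 CPM against 2 counts in all in the samples of the 3 other tissues. Thymus at that level was led before transplantation by Alox12 (2.62 ± 0.15, adjusted p = 2.92e-10), Dhrs3 (2.26 ± 0.10, adjusted p = 2.19e-11) and Fads2l1 (2.04 ± 0.23, adjusted p = 1.49e-06). Fads2l1 was higher in vagina than in thymus at that stage, and the mean of the other tissues includes bladder at the floor. Dhrs3 was called higher for 1st round vagina as well, where it had 7680 and 4909 counts, against 8389 and 6978 in thymus. Alox15 (2.64 ± 0.27) and Cyp39a1 (2.59 ± 0.44), under 5 CPM, differed by more than Dhrs3. After recovery thymus was led by Cyp27a1 (5.65 ± 0.37, adjusted p = 2.28e-09, and 6.29 without the 2nd recovered trachea sample), Alox12 (5.25 ± 0.13, adjusted p = 4.10e-14) and Aldh1l1 (3.81 ± 0.30, adjusted p = 2.53e-08), with Cyp2b1 (4.34 ± 0.33) above Aldh1l1 at about 2 CPM. Cyp27a1 thereby led or came second in both recovered bladder and recovered thymus, with recovered trachea and vagina under 1 CPM. Aldh1l1 too was called higher for both of these tissues. It had 549 and 540 counts in recovered bladder and 547 and 714 in recovered thymus, against 2 and 1 in vagina.

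Against whisker cells of the same round, the comparison through which the symbols had been chosen, the members are given as a description only. Before transplantation 67 of 103 were called in bladder (31.9% of all genes), 64 in trachea (28.3%), 57 in vagina (18.6%) and 54 in thymus (22.9%). After recovery these were 54 (20.1%), 50 (19.1%), 48 (11.9%) and 39 (16.7%). The median size of the log2 difference of the members from whisker cells was 1.63 before and 1.19 after in bladder, 1.28 and 1.18 in trachea, 1.22 and 1.05 in vagina, and 1.31 and 0.89 in thymus.

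Related genes outside the 25 prefixes came from a list of 41 named enzymes of the same pathways. Of these, 15 rose and 9 fell in bladder, 7 rose and 7 fell in trachea, 3 rose and 9 fell in vagina, 13 rose and 7 fell in thymus, and 3 rose and 4 fell in whisker. The retinol dehydrogenase-like Sdr9c7, which acts on barrier lipids, and the epoxide hydrolase Ephx3 rose in all 4 non-hair tissues. Sdr9c7 averaged 0.199 CPM before and 3.90 CPM after in bladder, 1.21 and 2.64 CPM in vagina, and 10.9 and 5.17 CPM in whisker, where it fell. Ephx3 averaged 0.836 CPM before and 7.93 CPM after in bladder and 1.63 and 6.74 CPM in thymus.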

How the data were processed

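RNA from 20 samples, 2 for each of 5 tissues before transplantation and after recovery, was sequenced as TruSeq Stranded mRNA libraries. The authors trimmed reads with cutadapt 1.8, aligned them with STAR 2.5.2b to the rat genome Rnor_6.0 and counted them on Ensembl genes with HTSeq 0.6.1 (tools and versions also as in the submitters' processing notes), and deposited raw counts per gene for each sample. The strand setting of the counting is not given in the sources used here, so genes that overlap on opposite strands may not be separable. Multiply aligned reads (11601894 to 19374286 alignments per sample) did not enter the counts, so close gene copies read low. Reads on no gene (13.2% to 19.3%) and the other summary lines stayed out of library sizes. Samples were grouped by their labels.

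Following the study's methods, the 13265 genes that reached 1 CPM in any sample were scaled by TMM (edgeR 4.0.16) and fitted with limma voom (limma 3.58.1, R 4.3.3) over the 10 group means, with Benjamini-Hochberg adjustment over all tested genes. A call needed an adjusted p under 0.05 and a fold of at least 2. CPM values are TMM-scaled. With 2 samples a group, 3 counts per library was taken as the floor, and an exact permutation test could not go below p = 0.33, so none is given. Alternatives were edgeR's quasi-likelihood test, DESeq2 1.42.0, its size factors, other filters, a fold of at least 4, fits of the groups compared, the replicate number as a block and leaving out each sample. The procedure was tested on simulated data with 200 changed genes.

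Members were found by symbol prefix in the gene symbols of the study's supplementary tables, whose columns of fold changes and p values were not used. The members and gene lists were chosen with earlier results of these data known. Genes named in the text were the 4 largest called rises and falls per tissue among members whose higher group reached 5 CPM in each sample, the 3 most above the other tissues per tissue and round, the 4 largest trachea differences in each direction, and 30 members fixed by role. Members named beside these, such as Cyp24a1's relatives Cyp2r1 and Cyp39a1, Acsm3 or Aldh2, were chosen after their values were seen. Promoter windows of 250 bases before the RefSeq start (GRCr8) matched 84 of 104 members. No coordinate was moved between builds.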

Additional observations from a re-analysis of the deposited data

Results flagged for a closer look

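With 2 samples a group, no test of single samples against their group was run. The results given here are those whose change after transplantation differed between tissues by a test of the difference itself (limma voom interaction, adjusted over all 13265 genes). Both comparisons draw on the same samples, and neither gives a cause.

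In trachea the change lay below the mean change of bladder, vagina and thymus, on the log2 scale, for Cyp27a1 (-6.30), Cyp1b1 (-3.38), Aldh1l2 (-2.70), Cyp26b1 (-2.06), Abca12 (-1.69) and Apoe (-1.65). It lay above that mean for Apol3 (2.89), Gsta4 (2.14), Fads1 (1.89), Alox12 (1.75), Fads2 (1.39), Gstt3 (1.22), Dhrs9 (1.18) and Crabp2 (1.04). Of these members, only Cyp26b1, Fads1 and Gsta4 were also called against each of the 3 tissues separately. Cyp1b1 was not called against bladder (-0.48, adjusted p = 0.56) and was at -7.12 against thymus. Neither Cyp27a1 (-2.03, adjusted p = 0.153) nor Apoe (0.38, adjusted p = 0.488) was called against vagina. Apol3 had 0 counts in both recovered vagina samples. Without the 1st trachea sample before transplantation Apoe was at -1.32 with an adjusted p of 0.0616 and was no longer called. Crabp2 fell just short of the fold threshold without the 1st thymus sample (0.97) or the 2nd vagina sample (0.998) before transplantation.

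In vagina the change lay below the mean change of bladder, trachea and thymus for Aldh1l1 (-7.32), Adh7 (-6.62), Fads2l1 (-6.06), Apobec1 (-4.64), Cyp27a1 (-3.60), Cyp24a1 (-3.23), Ces2h (-3.12) and Dhrs3 (-3.08). Smaller differences in the same direction were found for Alox12 (-2.92), Aldh1a7 (-2.55), Aldh3a1 (-2.31), Apoe (-2.15), Fads1 (-1.93), Gstt3 (-1.89), Elovl4 (-1.88), Gsta4 (-1.83), Aldh1a1 (-1.70), Fads2 (-1.33), Cyp2s1 (-1.28), Aldh1a3 (-1.07) and Crabp2 (-1.02). The change in vagina lay above the mean for Aldh1l2 (3.10), Abcb1a (2.35), Abca4 (2.03), Fabp5 (1.82), Cyp2j10 (1.76), Fads3 (1.74) and Cyp27b1 (1.18). The value of Aldh1l1 rests on 3 counts in recovered vagina. Cyp27a1 fell in trachea as well (-6.06, against -4.03 in vagina), 1 of the tissues averaged here, so its fall is not particular to vagina. Cyp27b1 was no longer called without the 1st (adjusted p = 0.0603) or 2nd (0.055) vagina sample before transplantation or the 2nd recovered one (0.187). Aldh1a3 was at -0.96 without the 2nd vagina sample and at -0.9996 without the 2nd bladder sample before transplantation, short of the threshold. Crabp2 was short of it, between -0.88 and -0.998, without the 2nd vagina sample of either round, the 2nd thymus sample before transplantation or the 1st recovered thymus sample.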

How the results depend on the processing

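Under a fold of at least 4 in place of 2, a stricter threshold by construction, 28 members were called after transplantation in bladder, 13 in trachea, 16 in vagina, 23 in thymus and 6 in whisker. The tissue comparisons then gave 20, 15, 21 and 21 before transplantation and 18, 19, 23 and 20 after recovery (bladder, trachea, vagina, thymus), the trachea interaction 10 and the vagina interaction 29. Required against each of the 3 other tissues separately, the calls were 26, 9, 15 and 14 before and 12, 14, 10 and 15 after, and 4 for the trachea interaction. The other alternatives (edgeR, DESeq2, its size factors, both filters, the fits of the groups compared) kept each of these counts within 1.5 times.

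Leaving out 1 sample at a time always gave fewer members than the 56, 31 and 40 of the full fit in bladder, trachea and vagina. In thymus and whisker the counts lay on both sides of the 42 and 18 of the full fit. The tissue comparisons ranged over 47 to 51, 30 to 37, 39 to 44 and 39 to 43 before and 42 to 46, 36 to 44, 36 to 43 and 42 to 47 after, and the interactions over 20 to 27 (trachea) and 41 to 47 (vagina).

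Samples with the same replicate number did not deviate together: over 45 pairs of groups the correlation of their deviations ran from -0.12 to 0.24 (median 0.02), so they share only a number. With that number as a replicate block, 56, 31, 38, 42 and 18 members were called in the 5 tissues, 50, 36, 43 and 42 in the comparisons before, 45, 43, 42 and 46 after, and 25 and 46 for the interactions.

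For the 353 named values, 5429 alternative values were computed, of which 5260 kept their call, 129 lost it (81 with a fold of at least 4), 40 gained it and 0 changed sign as a call. Depth limits levels under 0.101 to 0.145 CPM.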
